A study of Mus musculus with 12 samples.

Results

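Collagen genes were taken as all genes whose symbol has the form Col, a number, a and a number (Col1a1 to Col28a1), after the array's transcript accessions had been matched to RefSeq symbols. There were 65 such probes, for 39 genes, among 41174 probes on the array. Of these genes, 33 had a probe that cleared background by a wide margin (the scanner software's mark) in every mouse of 1 or more groups, and were kept among 23747 genes in all. They were 11 of 11 fibrillar collagens, 8 of 9 collagens of the basement membrane and its zone, and 14 of 19 others. Not kept were Col4a5, Col6a6, Col8a2, Col10a1, Col14a1 and Col26a1, each above background on 0 to 5 of the 12 arrays. A further 5 genes of this form had no matched probe and were not analysed here: Col6a3, Col6a5, Col12a1, Col20a1 and Col22a1.

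The tissue was scraped colon mucosa of C57BL/6 bone marrow chimeras, 1 colon per array. Every recipient was wild type, so cells that do not come from marrow carried an intact Muc1 (the gene of a membrane mucin), and the donor marrow came from Muc1 knockout (KO) or wild-type (WT) C57BL/6 mice. The groups were KO_AOMDSS, WT_AOMDSS, KO_untreated and WT_untreated, with 3 mice each. Treated mice received the carcinogen azoxymethane (AOM) at 12.5 mg/kg into the peritoneum. From 5 days later they drank dextran sodium sulfate (DSS), which injures the colon lining, at 2% for 4 days, then water for 14 days. That cycle was given again, followed by 2.5% DSS for 5 days, and the colon was collected 1 day afterwards. The age and sex of the mice and the share of donor cells are not given in these sources. The comparisons ask how the treatment and the Muc1 genotype of marrow-derived cells relate to expression in the mucosa.

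Collagens are secreted or membrane-bound proteins whose alpha chains wind around each other into a stiff helix. Fibrillar collagens (types I, II, III, V, XI, XXIV and XXVII) assemble into the fibrils that give tissue its tensile strength, and in the gut they are made mainly by fibroblasts and related cells of the lamina propria and deeper layers. Type IV forms the sheet of the basement membrane under epithelium and around vessels and muscle, while types VII, XV and XVIII anchor or decorate it. The remaining types coat fibrils, form beaded filaments or networks, or span the cell membrane. In chronic colitis, deposits of fibrillar collagen are a known part of scarring.

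Levels below are log2 processed signals relative to the array's 75th percentile, so 0 is the brightness of a probe at that percentile, and levels of different genes are not comparable because probes differ. The 75th percentile was 332 to 767.8 units on 11 arrays and 153.2 on WT_AOMDSS 3. Well above background were 57.97% to 78.27% of gene probes per array, and saturation touched 0 gene spots. Of 3 slides, slide 3 carried 4 treated arrays (WT_AOMDSS 1 and 2, KO_AOMDSS 1 and 2). Slide 2 carried the remaining treated arrays, WT_AOMDSS 3 and KO_AOMDSS 3, with KO_untreated 2 and 3, and slide 1 carried KO_untreated 1 with all 3 WT_untreated arrays. Slide 3 was scanned on another day and had 583 to 865 outlier spots per array, against 48 to 185 elsewhere. Treated and untreated WT-marrow mice shared no slide. All 8 epithelial markers were above background on all 12 arrays, as were 7 of 9 smooth muscle and 5 of 14 fibroblast markers. Muc1 itself was at -2.41 to -0.99 in KO_AOMDSS mice against -3.53 to -1.47 in WT_AOMDSS mice (difference 0.49 ± 0.6, SE, limma adjusted p = 1). In KO_untreated mice it was at -3.8 to -2.12, against -2.25 to -1.5 in WT_untreated mice (-1.11 ± 0.6, limma adjusted p = 0.425), so its level in whole mucosa does not check the donor labels.

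After treatment, collagens were called in both directions. Averaged over the marrows, 10 of the 33 genes rose and 6 fell (limma, Benjamini-Hochberg adjusted p under 0.05 over all genes), against 21% of all genes called, 7.55% higher and 13.5% lower. The classes differed in their counts: 7 of 11 fibrillar collagens rose and 1 fell, 2 of 8 basement membrane collagens rose and 2 fell, and 1 of 14 others rose while 3 fell. The median change was 2.05 in fibrillar, 0.04 in basement membrane and -0.68 in other collagens, against -0.193 over all genes. The probes used for Col5a2, Col5a3, Col17a1 and Col27a1, which rose, passed the background filter only through treated groups. Being above background there was a condition of being kept, and it adds no support to their rise. In a mixed tissue, fewer cells of a type and less RNA per cell cannot be told apart.

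**Figure D1:**
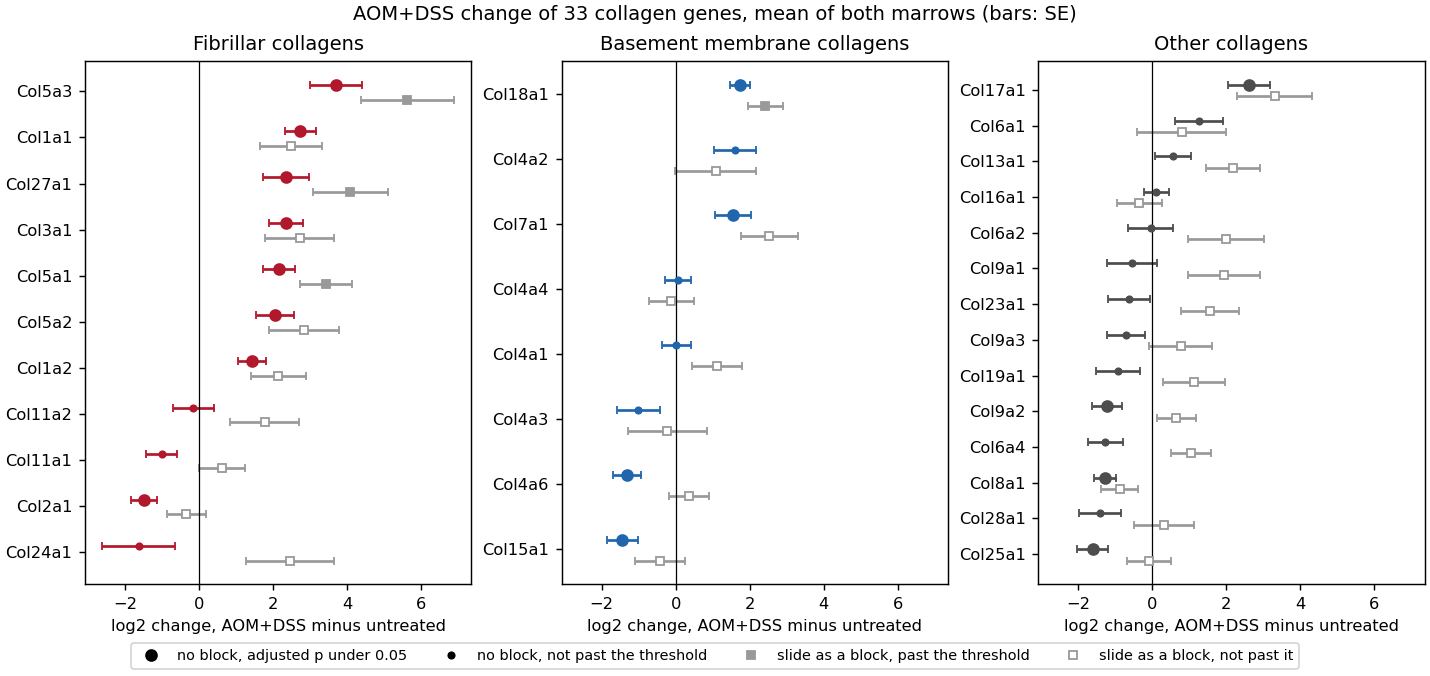
Log2 change (AOM+DSS minus untreated, mean of both marrows, ± SE, n = 3 mice per group) of the 33 collagen genes, in 3 panels by class. Coloured circles come from the fit without a block and grey squares from the fit with slide as a block, large or filled where the adjusted p was under 0.05. Of the 16 coloured calls, 4 stayed past the threshold with the block (Col5a3, Col5a1, Col27a1 and Col18a1), and all 6 calls of a fall were lost. Over all genes, calls of a fall went from 3198 to 497. The block's offset for slide 1 rests on 1 mouse, KO_untreated 1. The points of Col27a1 and Col5a2 rest on untreated groups at background and are not exact sizes.

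Types I and III make up most of the fibrillar collagen of the gut. With WT marrow, Col1a1, the main chain of type I collagen, stood at -0.7, 0.73 and -1.36 on the treated arrays, against -3.2, -1.26 and -3.38 on the untreated ones. With KO marrow it stood at 0.61, 0.02 and 0.72 on treated arrays, against -2.81, -3.12 and -2.7 on untreated ones. Treated and untreated arrays overlapped only through WT_AOMDSS 3 and WT_untreated 2. Col1a1 rose by 2.74 ± 0.42 (SE, 6.7-fold, adjusted p = 0.00114). A dimmer Col1a1 probe fell by 2.32 on the log2 scale, and the probes are set side by side further on. Col1a2, the other type I chain, was at -1.13, 0.9 and -0.1 on WT_AOMDSS arrays against -1.41, -0.05 and -1.53 on WT_untreated arrays. On KO-marrow arrays it was at 0.34, -0.04 and 1.32 after treatment, against -1.12, -1.69 and -1.51 without. It rose by 1.43 ± 0.38 (2.7-fold, adjusted p = 0.0211), a smaller estimate than that of Col1a1, and WT_untreated 2 and KO_untreated 1 overlapped the lower treated arrays.

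Col3a1, the chain of type III collagen, was at 0.18, 1.59 and 0.83 in WT_AOMDSS mice, against -1.68, 0.89 and -2.04 in WT_untreated mice. KO_AOMDSS mice had 1.37, 0.79 and 2.07, against -1.43, -1.76 and -1.26 in KO_untreated mice. Apart from WT_untreated 2, all untreated arrays lay below all treated ones. Col3a1 rose by 2.35 ± 0.45 (5.11-fold, adjusted p = 0.00477), while its second probe was at -1.81.

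Type V collagen, a minor component on which fibrils are started, had all its chains among the genes that rose. Col5a1 was at -2.98, -1.39 and -1.76 in WT_AOMDSS mice against -3.43, -2.57 and -3.97 in WT_untreated mice. The KO_AOMDSS values were -1.66, -2.26 and -0.32, against -3.88, -4.84 and -4.66 in KO_untreated mice. The KO-marrow groups did not overlap, the WT-marrow groups did, and Col5a1 rose by 2.16 ± 0.42 (4.48-fold, adjusted p = 0.00524). Col5a2 was at -4.59, -3.01 and -4.59 in WT_AOMDSS mice against -5.61, -4.23 and -6.46 in WT_untreated mice. In KO_AOMDSS mice it was at -3.88, -4.44 and -2.82, against -5.85, -6.78 and -6.7 in KO_untreated mice, where it was above background on 0 of 3 arrays. In WT_untreated mice it was above background on 1 of 3. It rose (adjusted p = 0.0164 over both marrows), and its KO-marrow difference is a bound, at least 5.44-fold higher after treatment (adjusted p = 0.0633 in that comparison). Each bound here sets the brighter group's mean against the dimmer group's mean of, per array, the probe's own signal or the lowest signal well above background, whichever was higher.

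Col5a3 had the highest estimate of the 33. It was at -3.52, -2.39 and -1.29 in WT_AOMDSS mice, against -7.21, -2.99 and -6.18 in WT_untreated mice. KO_AOMDSS mice had -1.67, -3.2 and -0.95, against -5.42, -7.05 and -6.4 in KO_untreated mice. The KO-marrow groups were well apart, while WT_untreated 2 lay among the treated arrays. The probe was above background on 1 of the 3 WT_untreated arrays. Col5a3 rose by 3.71 ± 0.7 (13.1-fold, adjusted p = 0.00442), while its second probe was at -0.71. Col27a1, a fibrillar collagen best known from cartilage, was above background on all 3 arrays of each treated group and on none of the untreated ones. It was kept only through the treated groups, so detection in 1 of them was a condition of being kept. It was at -5.93, -5.52 and -3.87 in WT_AOMDSS mice against -6.99, -5.97 and -7.93 in WT_untreated mice, and at -3.41, -5.67 and -3.79 in KO_AOMDSS mice against -6.29, -6.79 and -8.37 in KO_untreated mice. No treated array was as low as any untreated one. It rose (adjusted p = 0.0206 over both marrows), by at least 2.51-fold with WT marrow and at least 5.5-fold with KO marrow, although neither marrow alone passed (adjusted p = 0.16 and 0.115).

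The other fibrillar genes are known chiefly from cartilage, bone or cornea. Col2a1, the type II chain of cartilage, was at -2.18, -2.54 and -1.76 in WT_AOMDSS mice, against 0.53, 1.05 and -0.1 in WT_untreated mice. The KO_AOMDSS values were -1.51, -1.11 and -2.17, against -0.04, -1.77 and -1.99 in KO_untreated mice. The KO_untreated array on slide 1 lay near the WT_untreated arrays of that slide, and the other KO_untreated arrays lay among the treated ones. Col2a1 fell by 1.49 ± 0.36 (SE) on the log2 scale (adjusted p = 0.0146). Col11a1 (-1.01, adjusted p = 0.0955), Col11a2 (-0.16, adjusted p = 0.85) and Col24a1 (-1.63, adjusted p = 0.235) did not pass. In the fit with slide as a block, the Col2a1 estimate was -0.35 (adjusted p = 0.675).

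The 150 bases before the start site are shown for the fibrillar genes that rose, because these genes rose together and their windows can be read side by side. The RefSeq promoter table (GRCm38.p6) held 28 of the 33 kept collagen genes and 5 of these 7. Col1a1 and Col5a2 are named only. Each sequence runs 5′ to 3′ on the gene's own strand and ends just before the start. Capitals mark CCAAT, the letters of the box bound by the factor NF-Y, searched on both strands (CCAAT or ATTGG). The windows are chr6:4505468-4505617 (plus strand) for Col1a2, chr1:45311388-45311537 (plus) for Col3a1, chr2:27886275-27886424 (plus) for Col5a1, chr9:20815068-20815217 (minus) for Col5a3 and chr4:63215262-63215411 (plus) for Col27a1.
Col1a2: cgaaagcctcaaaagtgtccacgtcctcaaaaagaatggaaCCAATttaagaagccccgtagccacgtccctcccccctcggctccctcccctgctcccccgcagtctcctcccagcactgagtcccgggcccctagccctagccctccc
Col3a1: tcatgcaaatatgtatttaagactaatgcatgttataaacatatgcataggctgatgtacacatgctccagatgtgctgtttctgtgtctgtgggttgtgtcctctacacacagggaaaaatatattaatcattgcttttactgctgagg
Col5a1: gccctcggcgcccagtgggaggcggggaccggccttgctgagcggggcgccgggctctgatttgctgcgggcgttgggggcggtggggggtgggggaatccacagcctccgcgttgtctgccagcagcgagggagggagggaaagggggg
Col5a3: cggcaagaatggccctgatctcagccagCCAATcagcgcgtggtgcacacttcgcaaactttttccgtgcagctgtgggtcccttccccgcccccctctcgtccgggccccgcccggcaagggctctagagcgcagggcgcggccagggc
Col27a1: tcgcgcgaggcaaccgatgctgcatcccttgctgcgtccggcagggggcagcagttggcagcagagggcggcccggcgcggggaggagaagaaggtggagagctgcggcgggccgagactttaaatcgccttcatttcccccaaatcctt
The box began at -109 in Col1a2 and at -122 in Col5a3, counted back from the start, and these letters were not in the other windows shown. Over the 250 bases before the start it was in 33.8% of all 32851 windows of the table and in 12 of the 31 windows (38.7%) of the kept collagen genes. These are letter matches and nothing was measured at them here.

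Of the 8 basement membrane collagens, 4 did not pass, and those that did were split in direction. Col4a1 and Col4a2, the chains of the common type IV network, start 21 bases apart on opposite strands of chromosome 8 in the RefSeq table. Col4a1 was at -3.7, -1.69 and -1.83 in WT_AOMDSS mice against -2.04, -1.47 and -2.41 in WT_untreated mice, and at -3.1, -2.58 and -2.03 in KO_AOMDSS mice against -2.52, -3.25 and -3.39 in KO_untreated mice. Its change was 0.02 ± 0.39 (SE, 95% interval -0.82 to 0.87, adjusted p = 0.974). Col4a2 was at -3.87, -0.93 and -4.42 in WT_AOMDSS mice against -4.59, -3.23 and -4.8 in WT_untreated mice, and at -2.91, -2.62 and -1.89 in KO_AOMDSS mice against -4.67, -4.78 and -4.17 in KO_untreated mice. Treated KO-marrow mice were all above their untreated counterparts, but the change of 1.6 ± 0.56 did not pass (adjusted p = 0.0562). The chains of more restricted basement membranes, Col4a3 (-1.01, adjusted p = 0.215) and Col4a4 (0.06, adjusted p = 0.918), did not pass either. Col4a6 was at -1.99 to 0.11 in WT_AOMDSS mice against 0.48 to 1.43 in WT_untreated mice, and at -0.96 to -0.75 in KO_AOMDSS mice against -0.95 to 0.75 in KO_untreated mice. It fell by 1.32 ± 0.38 on the log2 scale (adjusted p = 0.03), but with slide as a block the estimate was 0.37 (adjusted p = 0.663).

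Of the collagens next to the basement membrane, Col18a1 gave the steadiest result. It is a proteoglycan-bearing collagen whose end fragment is known as endostatin. It was at -0.08, 0.79 and 0.61 in WT_AOMDSS mice against -1.31, -0.64 and -0.86 in WT_untreated mice, and at 1.13, 0.24 and 1.74 in KO_AOMDSS mice against -0.81, -1.11 and -1.26 in KO_untreated mice. All treated arrays lay above all untreated ones. Col18a1 rose by 1.73 ± 0.27 (3.33-fold, adjusted p = 0.0013), and it passed under all 21 settings that gave a value for it, 12 of them leaving out 1 array each.

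Col7a1, the chain of the anchoring fibrils that tie epithelium to the stroma, was at -1.19, -1.7 and 0.03 in WT_AOMDSS mice against -2.58, -1.91 and -2.79 in WT_untreated mice. In KO_AOMDSS mice it was at -0.19, -2.89 and 0.23, against -2.69, -2.58 and -2.47 in KO_untreated mice. KO_AOMDSS 2 was below every untreated array and the other treated arrays above them. Col7a1 rose by 1.55 ± 0.49 (adjusted p = 0.0406), and it passed in 3 of the 12 fits that left out 1 array. Col15a1, a relative of Col18a1, was at -6.4 to -5.05 in WT_AOMDSS mice against -3.48 to -3.31 in WT_untreated mice, and at -5.22 to -3.95 in KO_AOMDSS mice against -4.67 to -3.12 in KO_untreated mice. It fell by 1.44 ± 0.42 on the log2 scale (adjusted p = 0.0303), but with slide as a block the estimate was -0.42 (adjusted p = 0.69).

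**Figure D2:**
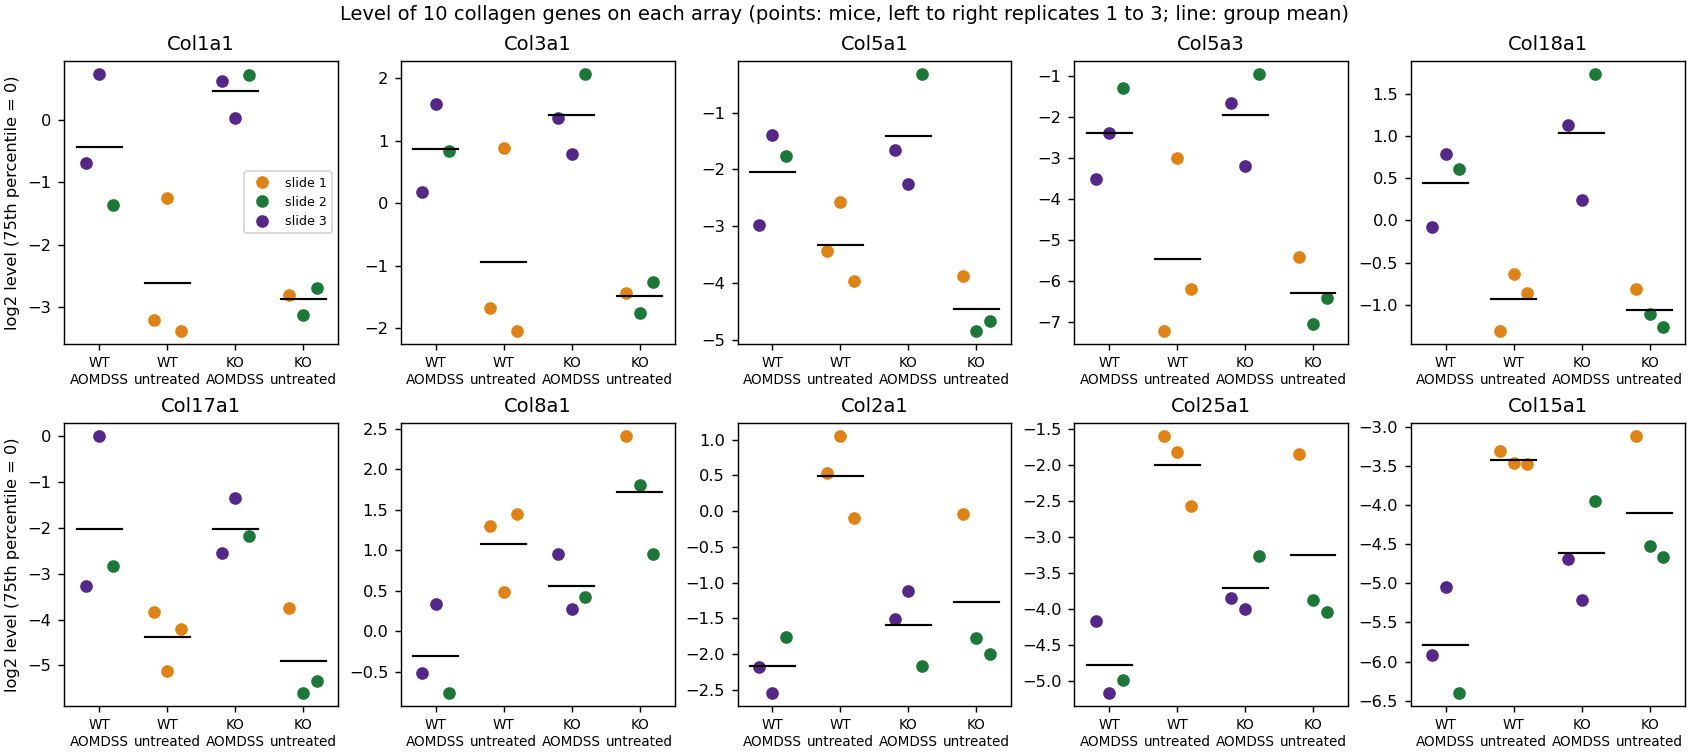
Log2 level of 10 collagen genes on each array, with 1 point per mouse coloured by slide and a line at the group mean, for WT_AOMDSS, WT_untreated, KO_AOMDSS and KO_untreated (3 mice each). Col18a1 and Col17a1 were higher on all treated arrays than on all untreated ones, and WT_untreated 2 stood above the other untreated arrays for Col1a1, Col3a1, Col5a1 and Col5a3. For Col2a1, Col25a1 and Col15a1 the KO_untreated array of slide 1 stood with the WT_untreated arrays and apart from KO_untreated 2 and 3.

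Among the membrane-spanning collagens, 1 rose and 1 fell. Col17a1, a protein of the hemidesmosomes that hold epithelial cells to the basement membrane, was at -3.26, 0 and -2.84 in WT_AOMDSS mice against -3.84, -5.12 and -4.2 in WT_untreated mice. KO_AOMDSS mice had -2.55, -1.35 and -2.17, against -3.75, -5.6 and -5.35 in KO_untreated mice. Treated and untreated arrays did not overlap. It rose by 2.62 ± 0.57 (6.14-fold, adjusted p = 0.00866). Col17a1 is abundant in squamous epithelium, and of the 5 measured squamous markers 1 rose and 0 fell, with a median deviation from each gene's mean over the 12 arrays of -0.29 to 1.79 over WT_AOMDSS mice against -0.2 to 0.13 over WT_untreated mice, and of -0.39 to -0.07 over KO_AOMDSS mice against -1.3 to 0.15 over KO_untreated mice. The marker that rose was Ly6d (4.5 ± 0.5, adjusted p = 0.000131), at 2.88 to 3.83 on the 6 treated arrays against -2.73 to 0.73 on the 6 untreated ones. The shares of all genes were 7.55% higher and 13.5% lower. The basal keratins Krt5 (0.1, adjusted p = 0.935) and Krt14 (0.05, adjusted p = 0.931) did not pass. WT_AOMDSS 2 had the highest level of Col17a1 (0), of the squamous list (1.79) and of Krt5 (1.93), and the part of squamous cells in the result was not tested.

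Col25a1, a membrane collagen known from neurons and developing muscle, was at -4.17, -5.16 and -4.98 in WT_AOMDSS mice against -1.6, -1.82 and -2.57 in WT_untreated mice. The KO_AOMDSS values were -3.85, -4 and -3.26, against -1.85, -3.87 and -4.04 in KO_untreated mice. The WT-marrow groups were well apart, and the KO-marrow groups overlapped. Col25a1 fell by 1.61 ± 0.42 on the log2 scale (adjusted p = 0.0204), but with slide as a block the estimate was -0.09 (adjusted p = 0.933). Col13a1 (0.55, adjusted p = 0.419) and Col23a1 (-0.64, adjusted p = 0.427), the remaining membrane types, did not pass.

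Col8a1, a short-chain collagen of networks around vessels, was at -0.51, 0.34 and -0.76 in WT_AOMDSS mice against 1.3, 0.49 and 1.45 in WT_untreated mice. In KO_AOMDSS mice it was at 0.96, 0.28 and 0.42, against 2.41, 1.81 and 0.95 in KO_untreated mice. Only KO_AOMDSS 1 lay among the untreated values. Col8a1 fell by 1.28 ± 0.29 on the log2 scale (adjusted p = 0.0112). It passed in 20 of 21 settings, among them all 12 fits that left out 1 array. With slide as a block it did not pass, at -0.88 ± 0.5 (adjusted p = 0.263). The fall with WT marrow alone passed in 3 of those 12 fits.

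The type VI chains, which form beaded filaments between cells and fibrils, did not pass. Col6a1 was at -5, -2.06 and -6.19 in WT_AOMDSS mice against -5.46, -3.67 and -5.85 in WT_untreated mice, and at -3.41, -4.14 and -3.39 in KO_AOMDSS mice against -6.04 to -5.31 in KO_untreated mice. Its change was 1.26 ± 0.65 (adjusted p = 0.168). Col6a2 was at -4.5, -2.96 and -2.23 in WT_AOMDSS mice against -1.37, -1.29 and -4.18 in WT_untreated mice, and at -3.36, -3.5 and -3.49 in KO_AOMDSS mice against -2.74, -5.1 and -5.06 in KO_untreated mice. Its change was -0.05 ± 0.61 (95% interval -1.36 to 1.26, adjusted p = 0.962), with both wide within-group ranges and a gap between slides. The estimate for Col6a4 was -1.27 (adjusted p = 0.0709).

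Of the fibril-associated collagens, which coat fibrils rather than form them, Col9a2 fell by 1.22 ± 0.41 on the log2 scale (adjusted p = 0.0485). It was at -3.34 to -1.27 in WT_AOMDSS mice against -1.12 to -0.3 in WT_untreated mice, and at -2.6 to -2.25 in KO_AOMDSS mice against -2.49 to -0.61 in KO_untreated mice. It passed in 2 of 12 fits that left out 1 array, and with slide as a block the estimate was 0.65 (adjusted p = 0.428). Its type IX partners in cartilage, Col9a1 (-0.55, adjusted p = 0.569) and Col9a3 (-0.71, adjusted p = 0.319), did not pass, nor did Col16a1 (0.11, adjusted p = 0.821), Col19a1 (-0.93, adjusted p = 0.269) or, outside that family, Col28a1 (-1.41, adjusted p = 0.0885). Of the 4 measured cartilage markers, a list that includes Col2a1, 3 fell (Col2a1, Acan and Comp), against 13.5% of all genes. Sox9 was at 0.73 (adjusted p = 0.0552), and 0 of the 4 were called under the slide block. Matn1, a defining cartilage gene, was above background on 0 of 12 arrays.

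Most collagens differed between the slide 1 mouse and the slide 2 mice of 1 group. KO_untreated mice lay on slides 1 and 2, which allows the same group to be set against itself. All 6 genes that fell were higher on KO_untreated 1 (slide 1) than on the mean of KO_untreated 2 and 3 (slide 2), by 1.03 to 2.11, with a median of 1.71. The 10 genes that rose differed there by -0.17 to 1.73, with a median of 0.68. Of the 17 collagens that did not pass, 16 were higher on slide 1, with differences of -0.2 to 2.67 and a median of 1.54, close to that of the genes that fell. The median over all genes was 0.35. On slide 2 alone, KO_AOMDSS 3 was above the mean of KO_untreated 2 and 3 for all 10 genes that rose, by 2.76 to 5.78, and for 3 of the 6 that fell, with differences of -0.96 to 0.69. These are 1 array against 2, so mouse and slide cannot be told apart, and they carry no test. They were chosen after seeing the data. The calls came from these same arrays: a high KO_untreated 1 favours a call of a fall, and a high KO_AOMDSS 3 a call of a rise. The splits by call are therefore partly fixed by the selection.

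With slide as a block, the median change over all genes moved to 0.456, against -0.193 without it, so each blocked value is to be read against that shift. Of all 23747 genes, 976 were called higher and 497 lower with the block, against 1793 and 3198 without it. The called collagens were then 4 higher and 0 lower: Col18a1 (2.42, adjusted p = 0.016), Col5a1 (3.43, adjusted p = 0.021), Col5a3 (5.63, adjusted p = 0.0275) and Col27a1 (adjusted p = 0.0391). For Col27a1 no size is given, since it was not well above background on any untreated array. Col1a1 was at 2.49 ± 0.84 (adjusted p = 0.0908), Col3a1 at 2.72 ± 0.93 (adjusted p = 0.0937) and Col1a2 at 2.14 ± 0.74 (adjusted p = 0.0955). Col5a2 (adjusted p = 0.0887), Col17a1 (3.3, adjusted p = 0.0722) and Col7a1 (2.53, adjusted p = 0.0736) also kept a positive estimate of at least the size without the block but missed the threshold. For WT-marrow mice, treatment and slide cannot be told apart within any slide. All WT_untreated arrays were on slide 1, where KO_untreated 1 was the only array of another group. The block's offset for slide 1 therefore rests on that 1 mouse. It enters every blocked value for WT marrow, for both marrows and for the interaction, also those given above.

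With WT marrow, treated against untreated mice, 2 collagens rose and 5 fell, against 13.8% of all genes called, 3.6% higher and 10.2% lower. Col1a1 rose by 2.17 ± 0.59 (adjusted p = 0.034) and Col18a1 by 1.38 ± 0.38 (adjusted p = 0.0355). Col2a1 (-2.65, adjusted p = 0.011), Col25a1 (-2.78, adjusted p = 0.0165), Col15a1 (-2.37, adjusted p = 0.0264), Col4a6 (-2.11, adjusted p = 0.0283) and Col8a1 (-1.39, adjusted p = 0.0436) fell. In the limma fit with slide as a block 0 of the 33 passed. Unadjusted p was under 0.05 for 6 of the 33, against 4210 of all 23747 genes. Of all 23747 genes, only 111 rose and 16 fell in that fit. Without the block, the median change was 1.28 in fibrillar, -0.2 in basement membrane and -1.39 in other collagens, against -0.244 over all genes. Col28a1 was above background on all 3 WT_untreated arrays and on none of WT_AOMDSS, at least 3.42-fold lower in WT_AOMDSS mice, but did not pass (adjusted p = 0.0813). It was kept only through WT_untreated mice, so its detection there was a condition of being kept.

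With KO marrow, 5 collagens rose and 0 fell, against 3.15% of all genes called, 1.85% higher and 1.31% lower. These were Col1a1 (3.32 ± 0.59, 10-fold, adjusted p = 0.00829), Col18a1 (2.09 ± 0.38, adjusted p = 0.00962), Col5a1 (3.05 ± 0.6, adjusted p = 0.0149), Col3a1 (2.9 ± 0.64, adjusted p = 0.0266) and Col5a3 (4.35 ± 1, adjusted p = 0.0314). The median change was 2.73 in fibrillar, 0.28 in basement membrane and -0.2 in other collagens, against -0.111 over all genes. The slide block gave 9 that rose and 0 that fell, the additional ones being Col1a2 (adjusted p = 0.0483), Col5a2 (0.0499), Col7a1 (0.0499) and Col27a1 (0.0259). Of all 23747 genes, that block gave 1107 that rose and 618 that fell.

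**Figure D3:**
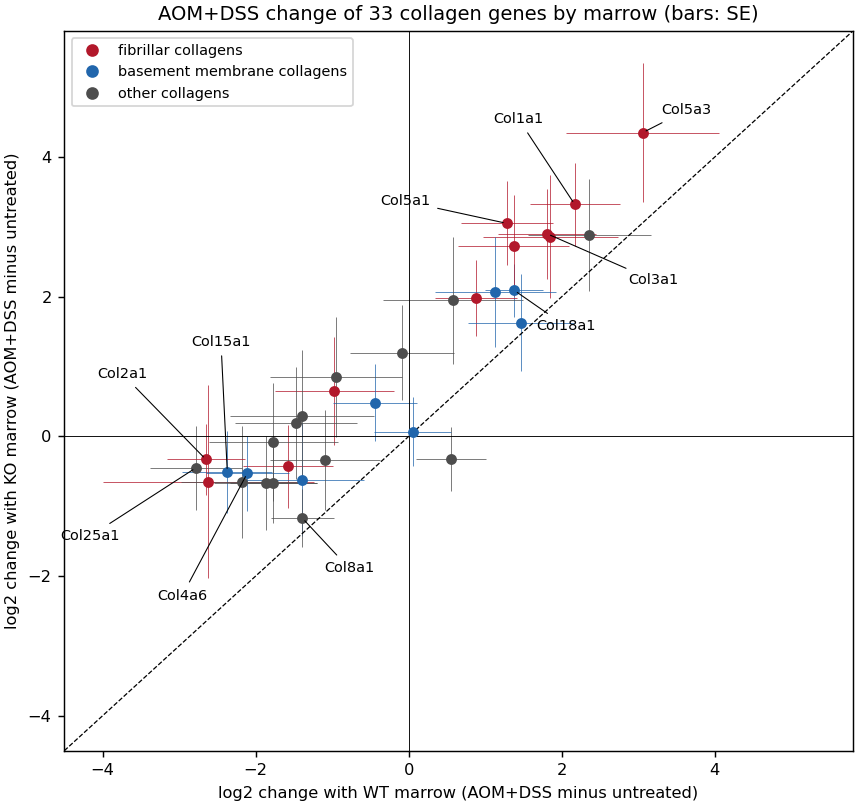
Log2 change after AOM+DSS with KO marrow (vertical) against WT marrow (horizontal) for the 33 collagen genes, with bars for the SE (n = 3 mice per group), colours for the class and a dashed line where both are equal. Genes past the threshold with either marrow are named. All genes but Col16a1 lie above the line, no gene passed the test of that difference, and with slide as a block, which is not drawn, 25 of 33 differences were positive.

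The difference in treatment effect between the marrows, the interaction, passed for 0 of 33 collagens and for 0% of all genes (limma). Its estimates were positive for 32 of 33, from 0.02 for Col4a4 to 2.33 ± 0.85 for Col25a1 (adjusted p = 0.897), and -0.87 for Col16a1. In the fit with slide as a block 25 of 33 were positive, with 0 at unadjusted p under 0.05. The median without the block was 1.2, against 0.177 over all genes. Unadjusted p was under 0.05 for 3 collagens, against 829 of all 23747 genes. The smallest among collagens was 0.00675, for Col2a1 (2.32 ± 0.72). For Col1a1 the estimate was 1.15 ± 0.83 (95% interval -0.65 to 2.96), an interval that includes 0.

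KO against WT marrow in treated mice gave 0 called collagens (0% of all genes called, 0 of 33 at unadjusted p under 0.05). Col8a1 had the smallest p (0.86 ± 0.41, unadjusted p = 0.0569, adjusted p = 1), and Col1a1 differed by 0.89 ± 0.59 (95% interval -0.39 to 2.17). In untreated mice 0 of 33 passed as well (0% of all genes called), with 6 at unadjusted p under 0.05, against 2911 of all 23747 genes. There 30 of 33 estimates were negative, with a median of -1.01 against -0.176 over all genes, and Col2a1 had the smallest p (-1.76 ± 0.51, adjusted p = 0.404). Of the KO_untreated mice, 2 lay on another slide than the WT_untreated mice. With slide as a block, this comparison rests on KO_untreated 1 alone against the 3 WT_untreated mice. There 12 of the 33 estimates were positive. Weighting arrays by their fit to the model gave 20 called collagens in untreated mice, against 2553 higher and 8178 lower among all 23747 genes. For the interaction it gave 16, against 5762 higher and 903 lower among all genes. The weighting gave the lowest weights to WT_AOMDSS 3 (0.135) and KO_untreated 1 (0.254), against 0.453 to 3.11 for the other arrays. Both lay on another slide than the rest of their group. So did KO_AOMDSS 3, which was among the other arrays.

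Several fibroblast markers rose with treatment, as fibrillar collagens did. Of 11 measured, a list that shares Dcn and Lum with the fibril-binding genes below, 5 rose with treatment and 0 fell, among them Pdgfra (3.26 ± 0.46, adjusted p = 0.000657) and Thy1 (1.26, adjusted p = 0.0152), while Vim (1.04, adjusted p = 0.09) and Lum (-0.53, adjusted p = 0.621) did not pass. Pdpn (mean -5.92 on treated against -4.73 on untreated arrays) and Fbln2 (-2.92 against -1.86) were also lower after treatment without being called. The slide block left 1 of the 11 higher and 0 lower. The median of the list, as a deviation from each gene's mean over the 12 arrays, was -0.11 to 1.22 in WT_AOMDSS mice against -0.77 to 1.21 in WT_untreated mice, and 0.14 to 0.64 in KO_AOMDSS mice against -1.06 to -0.53 in KO_untreated mice. The fibrillar collagens ranged from -0.09 to 1.4 in WT_AOMDSS mice against -1.16 to 0.93 in WT_untreated mice, and from 0.47 to 2.08 in KO_AOMDSS mice against -1.63 to -0.62 in KO_untreated mice. WT_untreated 2 had the highest untreated value of both lists, 0.93 and 1.21. Smooth muscle markers had 0 of 9 called, and were at 2.41 on WT_AOMDSS 2 and 1.26 on WT_untreated 2, against -1.13 to 0.39 on the other arrays. Of 7 leukocyte markers 3 rose and 0 fell (2 and 0 with slide as a block), among them Itgam (2.7 ± 0.34, adjusted p = 0.000279) and Csf1r (1.81 ± 0.28, adjusted p = 0.00112), both higher on all treated than on all untreated arrays. The leukocyte list was at 0.03 to 1.22 in WT_AOMDSS mice against -0.8 to 0.82 in WT_untreated mice, and at -0.17 to 1.05 in KO_AOMDSS mice against -1.75 to -0.1 in KO_untreated mice. WT_untreated 2 also stood at 3.59 for adipocyte, 1.2 for endothelial and 0.82 for leukocyte markers. For enteric markers it was at 1.41, beside 1.44 on WT_untreated 1 and 0.89 on KO_untreated 1. The part of these cell types in the collagen results was not tested. For comparison with the marker counts, 7.55% of all genes rose and 13.5% fell. With slide as a block, 976 of 23747 genes rose and 497 fell.

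**Figure D4:**
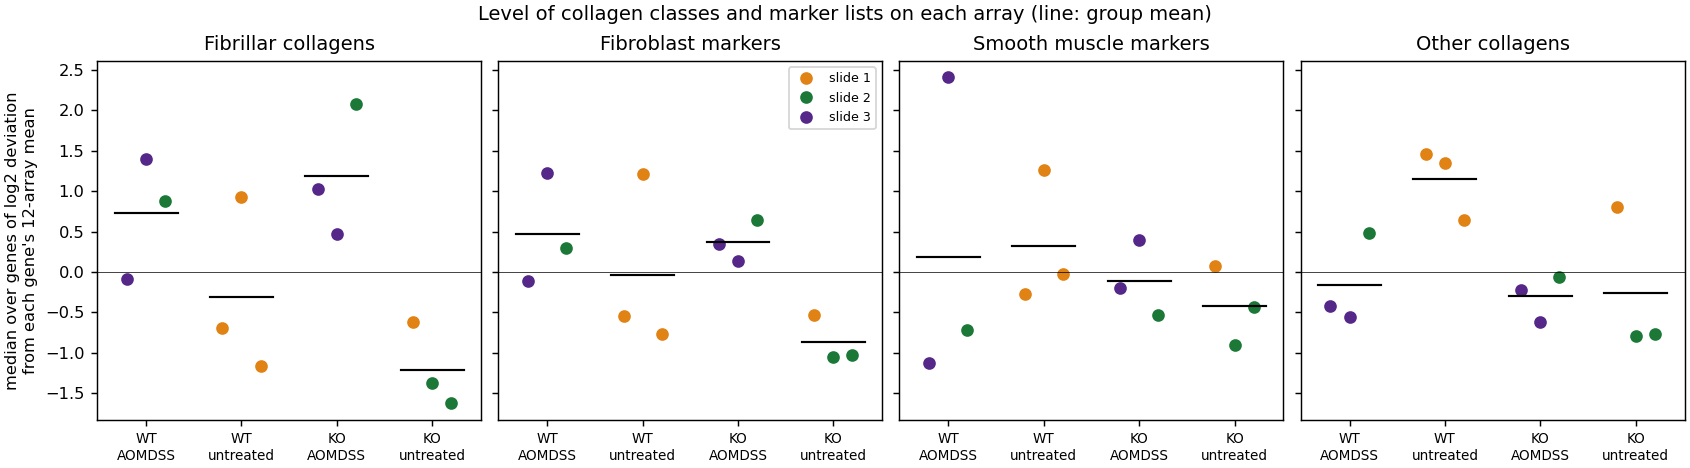
Median log2 deviation from each gene's mean over the 12 arrays, for the fibrillar collagens (11 genes), fibroblast markers (11), smooth muscle markers (9) and other collagens (14), with 1 point per array coloured by slide and a line at the group mean. Fibrillar collagens and fibroblast markers have their highest untreated point on WT_untreated 2. The other collagens stood at 0.64 to 1.46 on the untreated arrays of slide 1, and KO_untreated 2 and 3 on slide 2 were at -0.8 and -0.77.

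Of 24 measured genes of collagen synthesis and cross-linking, 2 rose and 0 fell, a share near the 7.55% of all genes that rose. Serpinh1, the collagen chaperone HSP47, rose by 2.67 ± 0.62 (6.38-fold, adjusted p = 0.0132, with WT_AOMDSS 2 missing), and Pcolce2, an enhancer of procollagen cleavage, also rose (adjusted p = 0.0254). Pcolce2 was above background on 0 of 3 KO_untreated arrays, so its KO-marrow difference is a bound of at least 6.09-fold (adjusted p = 0.168 in that comparison). Of 13 genes of collagen breakdown and its inhibitors, 4 rose and 0 fell. The collagenase Mmp13 was at -0.29, 0.08 and -1.16 in WT_AOMDSS mice against -4.54, -4.24 and -5.88 in WT_untreated mice, and at 1.24, -0.03 and 2.56 in KO_AOMDSS mice against -4.77, -4.57 and -5.58 in KO_untreated mice. It rose by 5.33 ± 0.45 (40.3-fold, adjusted p = 2.53e-05), with treated and untreated arrays far apart. Mmp8, the neutrophil collagenase, was above background on all treated and no untreated arrays, at least 7.78-fold higher with WT marrow and 14.3-fold with KO marrow (adjusted p = 0.0151 and 0.0111). Mmp8 and Pcolce2 were kept only through treated groups, so detection in 1 of these groups was a condition of being kept. The gelatinases Mmp2 (2.2 ± 0.38, adjusted p = 0.00265) and Mmp9 (1.63 ± 0.5, adjusted p = 0.0379) also rose. Mmp13, Mmp8, Mmp9 and Pcolce2 passed with slide as a block, while Serpinh1 (adjusted p = 0.116) and Mmp2 (0.0711) did not.

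Among 8 collagen receptors, Lair1, an inhibitory receptor of leukocytes, rose by 1.59 ± 0.44 (adjusted p = 0.0254), and Oscar, an osteoclast-associated receptor, fell by 1.64 ± 0.38 on the log2 scale (adjusted p = 0.0125, but -0.19 and adjusted p = 0.797 with slide as a block). Of 10 fibril-binding partners 1 rose and 2 fell: decorin (Dcn, 2.54 ± 0.77, adjusted p = 0.0382, with KO_AOMDSS 2 missing), Prelp (-1.66, adjusted p = 0.0103) and fibromodulin (Fmod, -1.54, adjusted p = 0.0278). Of 11 basement membrane partners 4 rose and 2 fell. Named among them were the laminin chains Lama5 (0.95, adjusted p = 0.0248) and Lamb1 (2.28, adjusted p = 0.0293), which rose, and Lamb2 (-1.08, adjusted p = 0.0275), which fell. Of these partners only Lair1 passed with slide as a block (3.14, adjusted p = 0.0138). Over all genes, 7.55% rose and 13.5% fell.

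Different probes of a gene did not always give the same change. Of the kept members, 11 had more than 1 kept probe, 5 of these had probes with opposite signs, and in 9 the probes were more than 1 log2 unit apart. Probes are numbered from the brightest. The Col1a1 probes gave 2.74 (adjusted p = 0.00136), -2.32 (adjusted p = 0.024) and 1.52 (adjusted p = 0.0951), in a fit of every probe on its own chosen after seeing the data. The Col3a1 probes gave 2.35 and -1.81, those of Col5a3 3.71 and -0.71, those of Col2a1 -1.49 and 1.39, and those of Col6a4 -1.27 and 0.18. The second probe was above background on 7 of 12 arrays for Col1a1, 11 for Col3a1 and 10 for Col5a3.

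Of the 5 genes whose probes opposed each other, all but Col2a1 had the wider gap between slides in the probe with the lower change. On KO_untreated 1 (slide 1) against KO_untreated 2 and 3 (slide 2), the second probe stood 2.51 higher for Col1a1, 2.87 for Col3a1 and 1.88 for Col5a3, while the brightest stood 0.1, 0.08 and 1.3 higher. For Col2a1, whose brightest probe had the lower change, the gaps were 1.84 for the brightest and 2.13 for the second. The same untreated arrays enter the gap and the change, so gap and change are not independent. With slide as a block the second probes were at 0.72 for Col1a1, 1.39 for Col3a1 and 2.14 for Col5a3, and none of these passed (adjusted p = 0.476, 0.189 and 0.128). Both probes of Col18a1 rose (1.73 and 1.22, adjusted p = 0.00152 and 0.0103), and both of Col8a1 fell (-1.28 and -1.89, adjusted p = 0.0124 and 0.0273). The brightest Col5a1 probe gave 2.16 and the second 0.35, and with slide as a block both rose (3.43 and 2.84, adjusted p = 0.0191 and 0.0432). The probes of Col4a1 (0.02 and 1.07), Col4a2 (1.6 and 0.44) and Col11a2 (-0.16 and -1.41) also differed. When the kept probes of a gene were averaged, 6 collagens rose and 5 fell, and Col1a1, Col3a1, Col5a1 and Col5a3 were not among them.

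**Figure D5:**
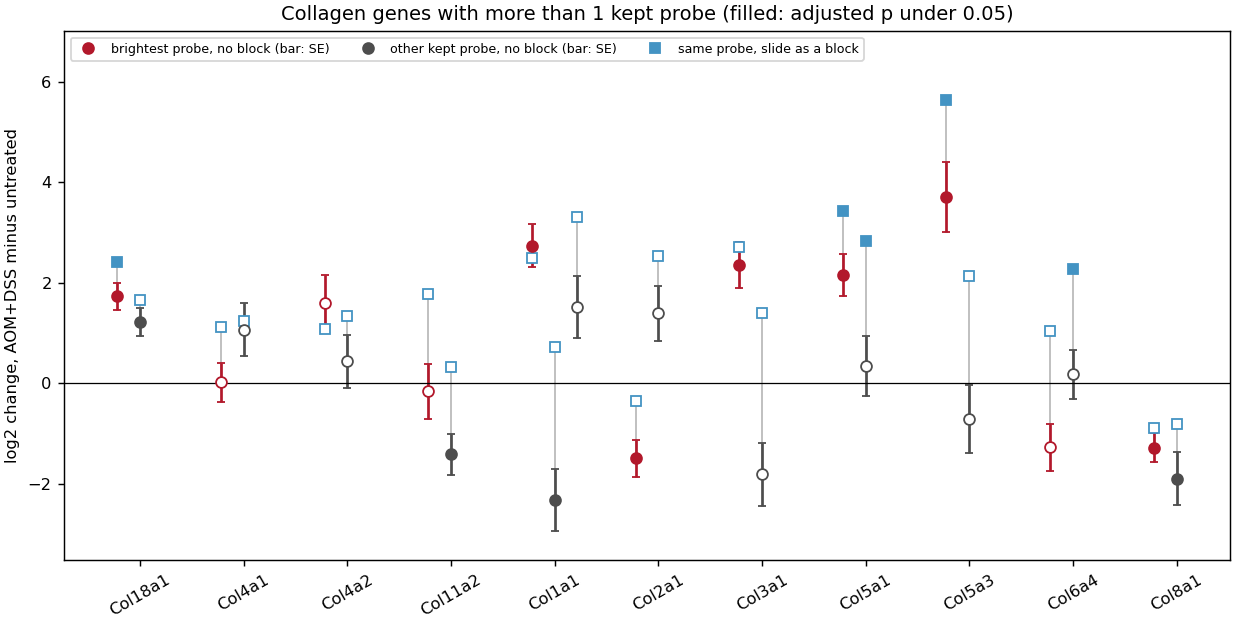
Log2 change (AOM+DSS minus untreated, mean of both marrows, ± SE) of each kept probe of the 11 collagen genes with more than 1, with the brightest probe in red, the others in grey and the value with slide as a block in blue, filled where the adjusted p was under 0.05. The second probes of Col1a1 and Col3a1 lie at -2.32 and -1.81 without the block, and at 0.72 and 1.39 with it.

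The authors' deposited table gives group means of 2506 selected probes, by a rule not given in the sources used here, and 17 of the 65 collagen probes, from 15 genes, are in it (26.2%, against 6.09% of all probes on the array). In the authors' deposited table the brightest Col1a1 probe is 2.19 higher in WT_AOMDSS than in WT_untreated mice and 3.33 higher in KO_AOMDSS than in KO_untreated mice. Col5a3 differs there by 3.09 and 4.37, and Col18a1 by 1.4 and 2.1, in the authors' deposited table. Of the genes that fell, none of the probes used here is in that table, but another Col2a1 probe is, with differences of 0.51 with WT marrow and 2.3 with KO marrow in the authors' deposited table. It includes a dimmer Col1a1 probe with differences of 1.37 and 1.7 in the authors' deposited table, and not the one at -2.32. Lower after treatment with both marrows were a Col23a1 probe and a Col10a1 probe, neither of them kept here. In the authors' deposited table the Col23a1 probe differs by -2.62 with WT marrow and -1.7 with KO marrow. The Col10a1 probe differs by -0.58 and -1.33 in the authors' deposited table.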

How the data were processed

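RNA extracted on RNeasy columns was labelled with Cy3 (Quick Amp), per the labels' protocols, and put on 12 Agilent mouse arrays, 1 colour each. Per the file headers, the design was 014868 and Agilent Feature Extraction 10.7.3.1 wrote the deposited spot intensities, which are on a linear scale with background removed but no scaling between arrays. Log2 group means, centred on each probe's median, were also deposited by the authors as a separate file.

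From each log2 processed signal the array's own 75th percentile was subtracted, with control spots dropped and outlier spots missing (43379 gene spots of 45018). Spots were averaged into 41174 probes, and accessions were matched to RefSeq symbols, which named 24375 probes. Kept were 30221 probes that the scanner software marked well above background in all 3 mice of a group, for any group, and the brightest kept probe stood for its gene (23747 genes). R 4.3.3 with limma 3.58.1 and data.table (version 1.17.8) fitted the 4 group means on the 12 arrays (lmFit, and eBayes with a trend), and p-values were Benjamini-Hochberg adjusted over all genes with a threshold of 0.05, in 6 comparisons. All intervals are 95% intervals. The fit was tested on simulated data. The number of arrays limits the precision.

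Per-array values are given for the collagens of main interest and for the 12 called members with the smallest adjusted p, and up to 4 called members of each companion list are named, except 1 that is not reported here; other marker genes, and the second probes, were named after their values were seen. Members, lists and tests were chosen with earlier results of these data known. Alternatives were other scaling, background correction, dim-probe filters, probe rules, blocks, array weights and left-out arrays. The scanner files hold no mean-signal column, so the normexp alternative used the median signal with an offset of 50. Replicate numbers were checked as pairs. Deviations of same-numbered arrays correlated at 0.307 to 0.512 between the treated groups, which share slides by number, and at -0.383 to 0.427 between other groups. Because of the shared slides, the treated correlations do not show that mice were paired.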

Additional observations from a re-analysis of the deposited data

How the results depend on the processing

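Calls depended most on how slide and array quality were handled. Over both marrows, 16 collagens were called, against 4 with slide as a block, 10 with scan day as a block, 10 with normexp background correction and 8 with only probes above background on all 12 arrays, where 15 collagens were left to test, and 24 (12 higher, 12 lower) with array weights. With WT marrow the count was 7, against 0 with slide as a block, 3 with normexp, 3 with the mean of a gene's probes, 4 with the stricter filter, 12 with quantile normalization and 21 with array weights. With KO marrow it was 5, against 9 with slide as a block, 8 with scan day as a block, 14 with array weights, 3 with the stricter filter and 1 with the mean of probes. Within slide 2, treatment with KO marrow gave 17 calls from 1 treated array against 2, and KO against WT marrow in treated mice gave 11 from 1 array against 1. Both assume that a lone array varies like the KO_untreated pair, so neither count is a check across mice. Calls were also common over all genes in both of these fits, so neither count is to be read as particular to collagens. KO against WT marrow in untreated mice gave 20 calls with array weights, and the interaction gave 16 with array weights. Over all genes, array weights called 3353 higher and 8601 lower with WT marrow, and 2687 and 2388 with KO marrow. They called 2553 higher and 8178 lower in untreated mice, and 5762 and 903 for the interaction. The cause was not tested.

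Estimates of a fall that turned positive came from normexp and the slide block. Col15a1 was at 0.65 with WT marrow and 0.47 over both marrows with normexp, and Col25a1 at 0.07 and 0.09. With slide as a block Col4a6 was at 0.13 with WT marrow and 0.37 over both, and Col9a2 at 0.65. Normexp moved the median of all genes over both marrows to 0.309.

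Leaving out each array in turn gave 10 to 23 calls over both marrows, 1 to 13 with WT marrow, 1 to 8 with KO marrow, 0 to 3 between marrows in untreated mice, and 0 between marrows in treated mice and for the interaction. Over both marrows the count was 10 without KO_AOMDSS 1 or without WT_untreated 1. With WT marrow it was 13 without WT_AOMDSS 3 and 11 without KO_untreated 1, but 1 without WT_untreated 1, 2 without WT_AOMDSS 1, 3 without WT_untreated 2 or 3, and 4 without WT_AOMDSS 2 or KO_AOMDSS 1. With KO marrow it was 8 without WT_AOMDSS 3, 3 without KO_AOMDSS 1, 2 without KO_AOMDSS 3 or KO_untreated 2, and 1 without KO_untreated 3. The 3 calls in untreated mice came without KO_untreated 1, where 15 of all genes were higher and 1652 lower. Calls over all genes moved too. With WT marrow they were 856 higher and 2420 lower on all arrays. They were 1432 and 6175 without WT_AOMDSS 3, 1005 and 3670 without KO_untreated 1, and 228 and 259 without WT_untreated 1. With KO marrow, 439 and 310 on all arrays became 680 and 580 without WT_AOMDSS 3, and 165 and 86 without KO_untreated 3.

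The replicate block gave 15 calls over both marrows, 5 with WT marrow and 4 with KO marrow, and 0 between marrows and for the interaction. With the treated arrays alone, where same-numbered arrays share a slide, it gave 0 between marrows. Over all genes, 1793 rose and 3198 fell over both marrows, against 976 and 497 with slide as a block, 2273 and 1538 with scan day as a block, 1135 and 1264 with normexp, 2756 and 3461 with quantile normalization, and 4302 and 8288 with array weights. Beside left-out arrays, single collagen changes kept direction and call in 185 cases, kept direction but lost the call in 54 and turned in 7.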
